A study of Homo sapiens with 9 samples.

Results

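Transcripts of 9 enzymes of the tricarboxylic acid (TCA) cycle and of the malate side route were followed in cultured kidney cells. They are CS, IDH1, IDH2, IDH3A, OGDH, SUCLG2, FH, MDH2 and ME1. They were found in the count table by the NCBI gene identifier of each symbol, 9 of the 28395 genes listed, and 9 of 9 had enough reads to be tested. The samples were 3 cell lines with 3 libraries each. HK2 is a line of proximal tubule epithelium from non-cancerous kidney. 786-O comes from a primary clear cell renal cell carcinoma (ccRCC) and carries no functional VHL, the tumor suppressor that marks hypoxia-inducible factors for degradation. 786-M1A is a metastatic derivative of 786-O, recovered from lung metastases after the cells had been injected in vivo. All 3 lines were kept in Plasmax, a medium with nutrients at the concentrations of human plasma, with no drug and no genetic change made for the comparison. The replicates were dishes of 1 line plated the day before extraction, so that p-values measure the spread between dishes. HK2 and the cancer lines come from different people, and a difference between disease states cannot be told apart from a difference between individual lines.

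The TCA cycle oxidizes acetyl-CoA in the matrix of the mitochondrion and hands its electrons to the respiratory chain. Its intermediates also leave the cycle as building blocks: citrate for lipids, 2-oxoglutarate and oxaloacetate for amino acids. Isocitrate dehydrogenases and malic enzyme sit where the cycle meets the supply of NADPH, the reducing power used for biosynthesis and against oxidants. In the kidney the proximal tubule depends on mitochondrial oxidation, and ccRCC is known for low respiration and for stored lipid; inherited loss of FH causes another kind of kidney tumor.

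The question was whether the RNA of these enzymes differed between the normal, the primary and the metastatic line. Against HK2, 7 of the 9 transcripts were higher in both cancer lines, and CS and ME1 were lower in both. The largest of these differences was that of IDH1, 1.94-fold higher in 786-O, and no member reached 2-fold in any comparison. From 786-O to 786-M1A, 5 members fell (CS, IDH2, IDH3A, OGDH and FH), MDH2 rose, and IDH1, SUCLG2 and ME1 did not pass the test. Of the other subunits of the same complexes, IDH3B, DLST and SUCLG1 were lower than HK2 in both cancer lines. IDH3G was lower in 786-O and higher in 786-M1A, SUCLA2 was higher in 786-O, and DLD did not pass the test. Among all genes tested, 41.6% were called higher than HK2 in each cancer line, and 42.6% were called lower in 786-O and 43.3% in 786-M1A. From 786-O to 786-M1A, 27.9% were called higher and 28.0% lower. The subunits were set beside the members after their values were seen.

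Each library held between 30212291 and 45362428 counts on genes. Values are CPM, counts scaled to a common library size with edgeR's TMM factors, and 3 counts corresponded to between 0.0649 and 0.0966 CPM. Libraries of 1 line lay close together, with a biological coefficient of variation of 3.93%. Of the renal epithelial markers, 6 of 6 were above 3 counts in each line, with a summed level of 1550 to 1600 CPM in HK2, against 775 to 780 in 786-O and 654 to 665 in 786-M1A. The fall of this sum lay mostly in CDH6 (means of 886, 410 and 266 CPM in the same order) and KRT18 (428, 165 and 186 CPM). EPCAM was far lower in the cancer lines (74.1, 0.573 and 8.86 CPM), and CDH16 stood at 13.7, 12.1 and 4.82 CPM. PAX8 stood at 167, 165 and 182 CPM, and PAX2 was higher in the cancer lines (3.49, 25 and 10.7 CPM). Proximal tubule markers were above 3 counts for 6 of 7 in HK2 and 5 of 7 in each cancer line. Their sums were 108 to 114, 192 to 197 and 106 to 117 CPM, mostly through GGT1 and, in the cancer lines, ANPEP. In the same order GGT1 stood at 108, 80.6 and 88.3 CPM and ANPEP at 1.75, 112 and 19.8 CPM. LRP2, the megalin gene that defines the tubule, was at 0 in all 9 libraries, and CUBN, SLC34A1, SLC5A2 and AQP1 stood near or below 1 CPM. Fibroblast markers were above 3 counts for 5, 4 and 3 of 6 (summed 77.8 to 87.2, 282 to 352 and 302 to 306 CPM). A different gene made up most of the sum in each cancer line, COL1A1 in 786-O (mean 292 CPM) and PDGFRB in 786-M1A (282 CPM). Against HK2, COL1A1 (-1.70), COL3A1 (-5.99) and LUM (-2.04) were lower in 786-M1A on the log2 scale, and PDGFRB was higher (5.84). Endothelial and immune markers were above 3 counts for 1, 1 and 0 of 6, with sums of at most 0.562 CPM. The part of these cell type markers in the results below was not tested.

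Most genes differed between these lines, and the counts of members are given beside the share of all genes. A gene was called when its adjusted p (edgeR's quasi-likelihood test, Benjamini-Hochberg over 12695 genes) was under 0.05. Between 786-O and HK2, 9 of 9 members were called, where 84.2% of all genes tested were. The 7 higher members stood beside a share of 41.6% of all genes called higher, and the 2 lower ones beside 42.6% called lower. None of the 9 was called with at least a 2-fold difference, while 22.3% of all genes were. The 3 libraries of 786-O did not overlap the 3 of HK2 for 9 of 9 members and for 85.5% of all genes. The median log2 fold change of the members was 0.326, beside -0.0125 over all genes, and the median size regardless of sign was 0.495, beside 0.467.

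Between 786-M1A and HK2, 9 of 9 members were again called, against a background of 84.9%. Of these 7 were higher (41.6% of all genes) and 2 lower (43.3%), 0 reached 2-fold (25.4%), and 9 of 9 did not overlap (85.0%). Their median log2 fold change was 0.345, that of all genes -0.0188, and the median sizes were 0.346 and 0.51. Both comparisons use the same HK2 libraries and are therefore not independent of each other. Between 786-M1A and 786-O, 6 of 9 members were called, with 56.0% of all genes called. Here 1 was higher (27.9%) and 5 were lower (28.0%), 0 reached 2-fold (6.59%), and 7 of 9 did not overlap (61.6%). The median was -0.10 for the members and 0 for all genes, and the median sizes were 0.18 and 0.174. Shares called among the members were thus near those of the transcriptome in each comparison.

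**Figure D1:**
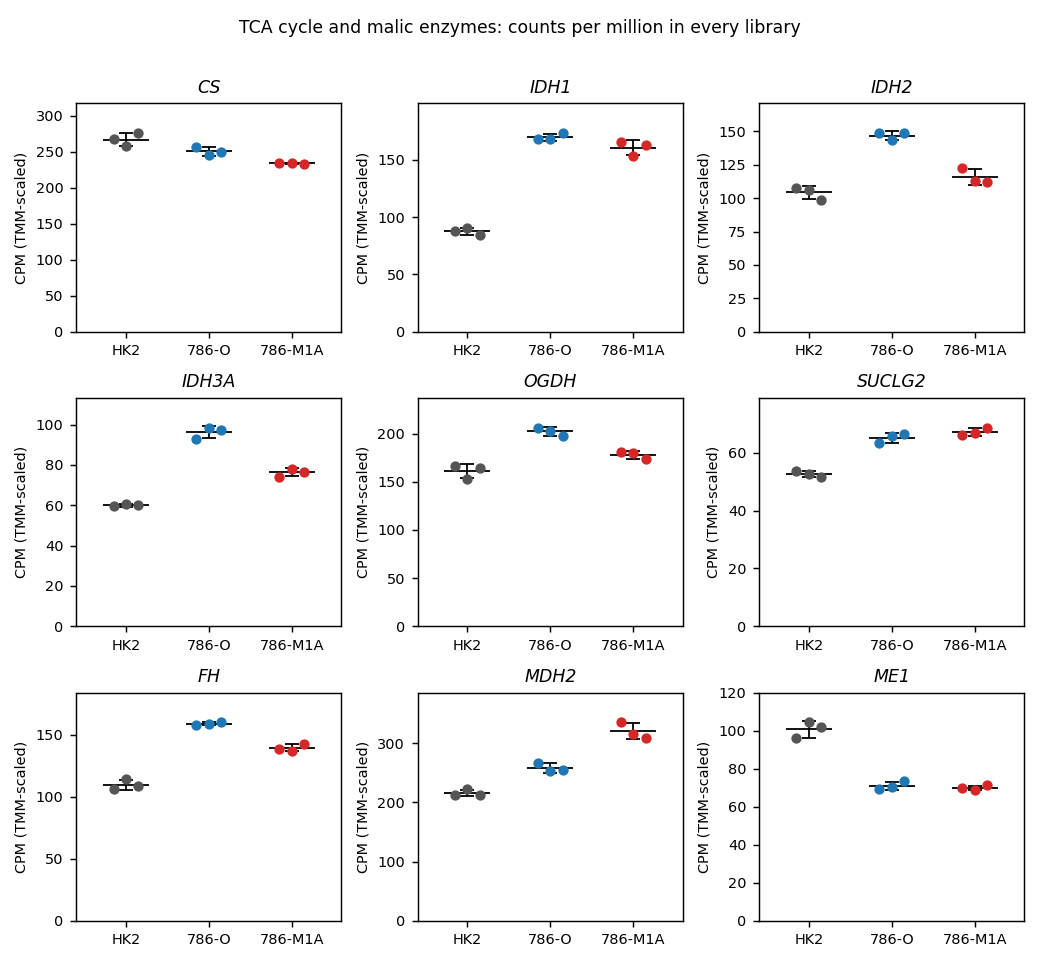
Level of each of the 9 enzymes in every library, in CPM after TMM scaling, with a vertical axis that starts at 0. Each point is 1 library, the horizontal bar is the mean of 3 and the whiskers are ± 1 SD. IDH1 stands between 84.1 and 90.8 CPM in HK2 and above 153 CPM in each cancer library, whereas ME1 is above 95 CPM only in HK2, and MDH2 is highest in 786-M1A.

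CS makes citrate from acetyl-CoA and oxaloacetate, the step by which carbon enters the cycle. It lies on the minus strand of chr12:56271699-56300391 (GRCh38). In HK2 its level was 267.0, 257.1 and 275.5 CPM, in 786-O 256.8, 244.8 and 249.8 CPM, and in 786-M1A 233.9, 233.9 and 232.8 CPM. The HK2 libraries were all above those of 786-O, by as little as the gap between 257.1 and 256.8, and the 786-M1A libraries were the lowest. CS fell by 0.09 on the log2 scale in 786-O (SE 0.0359, edgeR adjusted p = 0.0254) and by 0.19 in 786-M1A (SE 0.036, edgeR adjusted p = 4.67e-05), both against HK2. The step from 786-O to 786-M1A was -0.10 (SE 0.0359, edgeR adjusted p = 0.0212). The first of these calls was lost without HK2 replicate 1 (adjusted p = 0.0525 in edgeR) or HK2 replicate 3 (0.14), or without 786-O replicate 2 (0.113) or 786-O replicate 3 (0.0648). The last was lost without 786-O replicate 1 (0.13) or 786-O replicate 3 (0.0503) and without 786-M1A replicate 2 (0.051) or 786-M1A replicate 3 (0.0522), so that only the difference between 786-M1A and HK2 held with each library left out. The annotation places 28 exonic bases of CNPY2-AS1, on the other strand, and 220 of an unnamed protein-coding gene, on the same strand, over CS, and how reads in shared bases were assigned is not given in the sources used here.

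IDH3A encodes the catalytic subunit of the NAD-dependent isocitrate dehydrogenase, which oxidizes isocitrate inside the cycle. It lies on the plus strand of chr15:78131498-78171945. Its level was 59.43, 60.70 and 59.90 CPM in HK2, 92.87, 98.44 and 97.53 CPM in 786-O, against 74.21, 78.20 and 76.48 CPM in 786-M1A. The 3 lines formed separate levels, with 786-M1A in the middle. IDH3A was 1.604-fold higher in 786-O than in HK2 (log2 fold change 0.68, SE 0.0403, edgeR adjusted p = 7.32e-13) and 1.271-fold higher in 786-M1A (log2 fold change 0.35, SE 0.0408, edgeR adjusted p = 7.26e-08). It was lower in 786-M1A than in 786-O by -0.34 (SE 0.0398, edgeR adjusted p = 3.08e-07). IDH3A shares 2608 exonic bases with ACSBG1 and 38 with CIB2, both on the other strand. ACSBG1 was listed with 2 to 22 counts per library, at most 0.594% of the lowest IDH3A count of the same line, and CIB2 with 51 to 130 counts, at most 7.05%. Whether strand was used in counting is not given in the sources used here, and the part of these reads was not tested.

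The other subunits of that enzyme did not follow IDH3A. IDH3B, a regulatory subunit, was at 145.6, 151.1 and 145.2 CPM in HK2, at 70.02, 70.38 and 68.32 CPM in 786-O, against at 76.54, 73.54 and 74.47 CPM in 786-M1A. HK2 was thus 2.118 times as high as 786-O and 1.969 times as high as 786-M1A, with log2 fold changes of -1.08 (SE 0.0382, edgeR adjusted p = 7.09e-17) and -0.98 (SE 0.0382, edgeR adjusted p = 3.75e-16). IDH3G, the other regulatory subunit, had a mean of 70.5 ± 0.689 CPM in HK2, 50 ± 2.69 CPM in 786-O, against 78.6 ± 5.37 CPM in 786-M1A (SD, n = 3). It fell in 786-O (-0.49, SE 0.05, edgeR adjusted p = 7.16e-09) and rose in 786-M1A (0.16, SE 0.049, edgeR adjusted p = 0.00563), and its exons overlap SSR4, which has more counts, so that its value is uncertain. Within a library, where scaling plays no part, the log2 ratio of IDH3A to IDH3B was -1.29, -1.32 and -1.28 in HK2, 0.41, 0.48 and 0.51 in 786-O, against -0.04, 0.09 and 0.04 in 786-M1A. The ratio was thus 3.39-fold higher in 786-O and 2.5-fold higher in 786-M1A than in HK2, with no overlap between lines. The exact two-sided permutation test gave p = 0.1 for each, the smallest value that 3 libraries against 3 allow. The pairs of a member with another subunit were chosen after their values were seen.

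**Figure D2:**
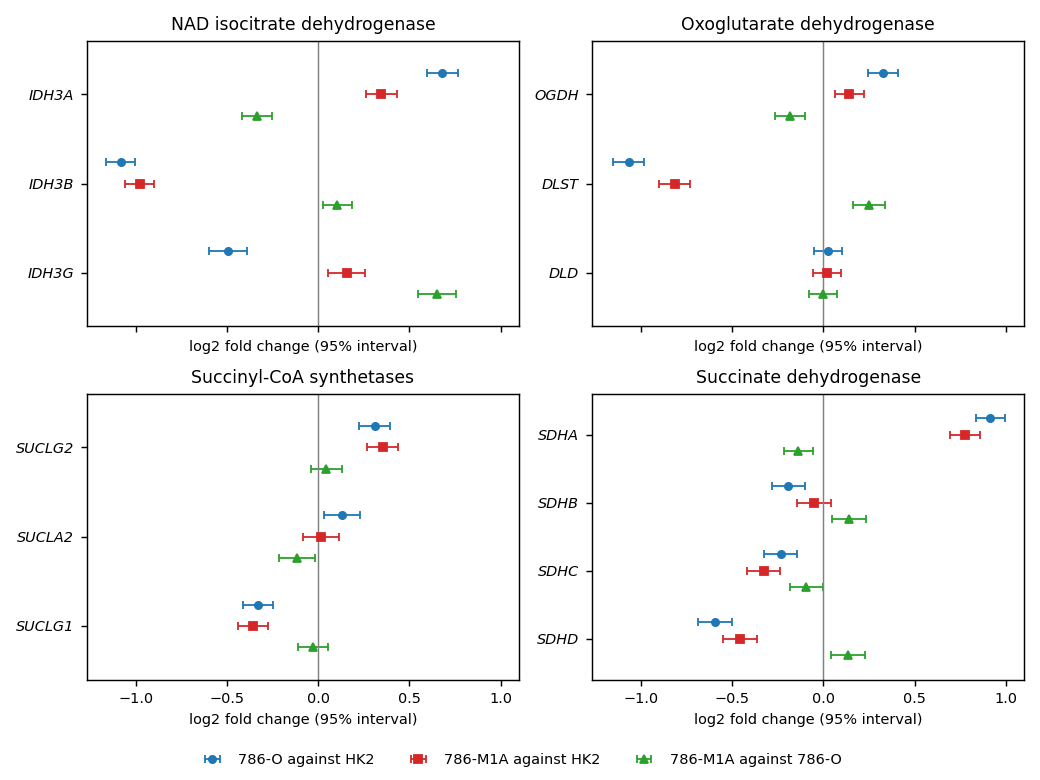
Log2 fold changes (horizontal axis) of the subunits of 4 enzymes, with 95% intervals from edgeR, for 786-O against HK2 (circles), 786-M1A against HK2 (squares) and 786-M1A against 786-O (triangles). IDH3A, OGDH, SUCLG2 and SDHA lie right of 0 in both comparisons with HK2, while IDH3B, DLST, SUCLG1, SDHC and SDHD lie left of it.

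IDH2 and IDH1 use NADP instead of NAD, IDH2 in the mitochondrion and IDH1 in the cytosol and peroxisomes, and both can also run in reverse and make citrate from 2-oxoglutarate. IDH2 lies on the minus strand of chr15:90083045-90102477. It was at 107.6, 106.3 and 98.97 CPM in HK2, at 148.6, 143.3 and 148.7 CPM in 786-O, against at 122.7, 112.8 and 111.9 CPM in 786-M1A. 786-O stood well above the other two lines, and 786-M1A only just above HK2. IDH2 was 1.409-fold higher in 786-O than in HK2 (log2 fold change 0.49, SE 0.0436, edgeR adjusted p = 7.27e-10) but 1.111-fold higher in 786-M1A (0.15, SE 0.044, edgeR adjusted p = 0.00319). The fall from 786-O to 786-M1A, -0.34 (SE 0.0434, edgeR adjusted p = 7.74e-07), was larger in size than 72.9% of all genes in that comparison.

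IDH1, on the minus strand of chr2:208236229-208266074, had the widest range of the members. Its level was 87.45, 90.82 and 84.12 CPM in HK2, 167.8, 168.0 and 173.2 CPM in 786-O, against 165.7, 153.2 and 162.7 CPM in 786-M1A. The cancer libraries lay far above those of HK2 and close to each other. IDH1 was higher by 0.96 in 786-O (SE 0.0411, edgeR adjusted p = 2.39e-15) and by 0.88 in 786-M1A (SE 0.0412, edgeR adjusted p = 1.04e-14), differences larger in size than 76.3% and 70.4% of all genes. Between the cancer lines the difference was -0.08 with a 95% interval from -0.16 to 0.0037 (edgeR adjusted p = 0.097), although the 786-O libraries were all above those of 786-M1A. Without 786-M1A replicate 1, the highest of its line, that difference passed the threshold at -0.10 (edgeR adjusted p = 0.039). IDH1-AS1, which shares 94 exonic bases with IDH1 on the other strand, was listed with 2 to 7 counts per library, at most 0.258% of the lowest IDH1 count of the same line.

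The balance between the transcripts of the cytosolic and the mitochondrial NADP enzyme therefore differed between the 3 lines. The log2 ratio of IDH1 to IDH2 was -0.30, -0.23 and -0.23 in HK2, 0.17, 0.23 and 0.22 in 786-O, against 0.43, 0.44 and 0.54 in 786-M1A. Each step moved it toward IDH1 with no overlap, by 0.462 from HK2 to 786-O and by 0.264 from 786-O to 786-M1A (exact permutation p = 0.1 for each, the smallest possible). The mean log2 ratio of IDH2 to IDH3A was 0.796 ± 0.067 in HK2, 0.609 ± 0.0683 in 786-O, against 0.601 ± 0.109 in 786-M1A (SD, n = 3). 786-O lay below HK2 without overlap (difference -0.187, exact permutation p = 0.1, the smallest possible). The cancer lines overlapped each other there (difference -0.00838, exact permutation p = 0.9), and 786-M1A overlapped HK2 (difference -0.196, exact permutation p = 0.2).

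Since IDH1, IDH2 and ME1 are the 3 members that form NADPH, the bases before their starts are shown, to set side by side 2 genes that moved in opposite directions, IDH1 and ME1, and 1 whose cancer lines differed. Each sequence is the 250 bases before the outermost start of the RefSeq gene, extended over adjoining GENCODE exons, read from GRCh38 on the minus strand at chr2:208255114-208255363, chr15:90102478-90102727 and chr6:83431052-83431301, in no exon of its own gene. For IDH1, GENCODE also has a start farther out, at 208266074, so that its window lies inside the span of the gene given above. Capitals mark matches to the core of the antioxidant response element, TGACNNNGC, the site of NRF2 and its partners.
IDH1: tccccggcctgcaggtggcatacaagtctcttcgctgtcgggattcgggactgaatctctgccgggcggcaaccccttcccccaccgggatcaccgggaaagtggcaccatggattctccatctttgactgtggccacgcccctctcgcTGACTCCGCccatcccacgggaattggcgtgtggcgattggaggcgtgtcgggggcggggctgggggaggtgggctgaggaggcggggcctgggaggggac
IDH2: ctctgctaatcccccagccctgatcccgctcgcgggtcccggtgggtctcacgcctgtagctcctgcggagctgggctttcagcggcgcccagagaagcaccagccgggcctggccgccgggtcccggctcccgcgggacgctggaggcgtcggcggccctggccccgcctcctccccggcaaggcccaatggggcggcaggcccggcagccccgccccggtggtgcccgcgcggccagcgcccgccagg
ME1: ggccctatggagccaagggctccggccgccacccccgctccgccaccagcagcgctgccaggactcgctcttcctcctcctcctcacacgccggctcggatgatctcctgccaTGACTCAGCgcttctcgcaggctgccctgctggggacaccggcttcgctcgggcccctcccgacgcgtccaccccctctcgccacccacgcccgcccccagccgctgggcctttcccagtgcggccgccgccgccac

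In these windows IDH1 held 1 match, TGACTCCGC, from 101 to 93 bases before the start, ME1 held 1, TGACTCAGC, from 137 to 129, and IDH2 held 0. The letters of the ME1 match include TGACTCA, the sequence bound by AP-1. With both strands searched, the 3 windows held 0 matches to ACGTG, a form of the core of the hypoxia response element. They also held 0 to TGCGCA, a core of the NRF1 site. GCGTG, the other form of the hypoxia core, was not searched, and it or its complement stands unmarked in each window. The matches counted depend on the start chosen. The ME1 window is the one in the RefSeq promoter table, but the table takes an inner start for IDH1 and IDH2, at chr2:208254459-208254708 and chr15:90100622-90100871. Before that start IDH1 held 0 matches to the antioxidant core and 1 to ACGTG, from 111 to 107 bases before it, and IDH2 held 0 of either. Over the 27305 RefSeq promoters of GRCh38.p14, which use the table's starts, 11% held the antioxidant core, 18.7% ACGTG and 7.05% TGCGCA in 250 bases, and the median GC content was 58.0%. At the table's starts the GC content was 56.8% for IDH1, 48.4% for IDH2 and 74.0% for ME1, and in the printed windows of IDH1 and IDH2 it was 67.2% and 78.4%. A match describes letters only.

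OGDH is the first component of the complex that turns 2-oxoglutarate into succinyl-CoA, and lies on the plus strand of chr7:44606572-44709066. Its level was 166.7, 153.2 and 164.1 CPM in HK2, 206.1, 202.8 and 197.7 CPM in 786-O, against 180.8, 179.9 and 173.5 CPM in 786-M1A. 786-O was again the highest line and 786-M1A the middle one, without overlap. OGDH was higher than in HK2 by 0.33 in 786-O (SE 0.0387, edgeR adjusted p = 8.63e-08) and by 0.14 in 786-M1A (SE 0.0388, edgeR adjusted p = 0.00195), and 786-M1A stood below 786-O (-0.18, SE 0.0386, edgeR adjusted p = 0.000372).

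DLST, the transferase core of that complex, was at 103.0, 99.94 and 101.3 CPM in HK2, 47.64, 47.83 and 49.65 CPM in 786-O, against 59.10, 58.20 and 55.45 CPM in 786-M1A. It fell in both cancer lines, by 1.07 (SE 0.0409, edgeR adjusted p = 3.16e-16) and by 0.82 (SE 0.0406, edgeR adjusted p = 2.97e-14), and a pseudogene copy is listed separately in the count table. DLD, the dehydrogenase subunit that this complex shares with pyruvate dehydrogenase, did not pass the test (0.02 in either cancer line, edgeR adjusted p = 0.531 and 0.587). DLD shares 300 exonic bases with LAMB1 on the other strand, which has more counts in every library and fell by 0.82 in either cancer line, so that the value of DLD is uncertain as well. The log2 ratio of OGDH to DLST rose from 0.669 ± 0.0457 in HK2 to 2.06 ± 0.0625 in 786-O and 1.63 ± 0.0164 in 786-M1A (SD, n = 3, exact permutation p = 0.1 against HK2, the smallest possible). OGDHL, a relative of OGDH, was counted 674, 795 and 823 times in HK2, 81, 90 and 102 times in 786-O, against 6, 4 and 5 times in 786-M1A. At each step it fell, and it dropped by 3.16 from HK2 to 786-O (edgeR adjusted p = 1.52e-17) and by 4.01 from 786-O to 786-M1A (SE 0.277, edgeR adjusted p = 6.69e-11). Per length it was far below OGDH already in HK2, at 3.45 ± 0.341 against 31.0 ± 1.38 RPKM (SD, n = 3), where RPKM is the CPM divided by the exonic length in kilobases.

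SUCLG2 is the GTP-forming subunit of succinyl-CoA synthetase and lies on the minus strand of chr3:67360460-67654612. It had 53.82, 52.75 and 51.55 CPM in HK2, 63.32, 65.89 and 66.62 CPM in 786-O, against 66.38, 66.76 and 68.73 CPM in 786-M1A. The cancer lines overlapped each other and stood above HK2. SUCLG2 rose by 0.31 in 786-O (SE 0.0411, edgeR adjusted p = 4.73e-07) and by 0.35 in 786-M1A (SE 0.0412, edgeR adjusted p = 6.27e-08). The difference between the cancer lines was 0.04, with a 95% interval from -0.04 to 0.13 (edgeR adjusted p = 0.371). SUCLG1, the subunit with which SUCLG2 pairs, fell by 0.33 (SE 0.0397, edgeR adjusted p = 1.07e-07) and by 0.36 (SE 0.0399, edgeR adjusted p = 3.02e-08), and the ratio of SUCLG2 to SUCLG1 was 1.56-fold and 1.64-fold higher than in HK2. SUCLA2, the ATP-forming alternative to SUCLG2, was higher in 786-O (0.13, edgeR adjusted p = 0.0134) and did not pass in 786-M1A (0.02, edgeR adjusted p = 0.766). The call in 786-O was lost without HK2 replicate 1, without 786-O replicate 3 and with upper-quartile scaling, with adjusted p-values of up to 0.0867 in edgeR.

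Succinate dehydrogenase, which joins the cycle to the respiratory chain, has no member among the 9 and was looked at after its values were seen. SDHA, the flavoprotein subunit, was at 196.7, 206.6 and 194.4 CPM in HK2, at 381.8, 370.6 and 373.8 CPM in 786-O, against at 358.5, 333.4 and 332.1 CPM in 786-M1A. It was higher by 0.91 and 0.78 (SE 0.0384 each, edgeR adjusted p = 1.63e-15 and 2.64e-14), a size close to that of IDH1. SDHB, the iron-sulfur subunit, differed by -0.19 in 786-O (edgeR adjusted p = 0.000421) and by -0.05 in 786-M1A (edgeR adjusted p = 0.267). The membrane subunits SDHC and SDHD fell in both lines, SDHD by 0.59 in 786-O (SE 0.0441, edgeR adjusted p = 3.82e-11). SDHA shares 1887 exonic bases on the same strand with an unnamed protein-coding gene that has no entry in the count table. It also has pseudogene copies in the table, SDHAP2 and SDHAP3, so that its value is less certain. SDHAP2 did not pass the test between 786-O and HK2 (0.02, edgeR adjusted p = 0.74). Its other comparisons and the values of SDHAP3 are not given here.

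FH converts fumarate into malate and lies on the minus strand of chr1:241497511-241519799. Its level was 105.9, 114.1 and 109.0 CPM in HK2, 158.1, 158.6 and 160.0 CPM in 786-O, against 138.8, 136.8 and 142.5 CPM in 786-M1A. The lines did not overlap, and 786-O was the highest. FH was 1.448-fold higher in 786-O than in HK2 (log2 fold change 0.53, SE 0.0379, edgeR adjusted p = 1.79e-11) and 1.27-fold higher in 786-M1A (0.34, SE 0.0381, edgeR adjusted p = 2.67e-08). From 786-O to 786-M1A it fell by 0.19 (SE 0.0376, edgeR adjusted p = 0.000203).

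MDH2, the mitochondrial malate dehydrogenase that closes the cycle, lies on the plus strand of chr7:76048051-76067508. It was at 212.1, 221.9 and 212.8 CPM in HK2, 267.3, 253.0 and 254.3 CPM in 786-O, against 335.2, 315.4 and 309.2 CPM in 786-M1A. Its levels were lowest in HK2 and highest in 786-M1A, an order that no other member showed without overlap. MDH2 rose by 0.26 in 786-O (SE 0.0387, edgeR adjusted p = 2.4e-06) and by 0.57 in 786-M1A (SE 0.0388, edgeR adjusted p = 7.69e-12) against HK2, and by 0.31 between the cancer lines (SE 0.0385, edgeR adjusted p = 6.2e-07). MDH1, its cytosolic counterpart, was chosen after its values were seen. It had means of 190 ± 9.39, 174 ± 5.03 and 156 ± 1.32 CPM (SD, n = 3), in the order HK2, 786-O and 786-M1A. MDH1 thus fell where MDH2 rose, by 0.13 in 786-O (edgeR adjusted p = 0.00587) and by 0.28 in 786-M1A (edgeR adjusted p = 9.26e-07).

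FH and MDH2 catalyze consecutive steps, and their ratio set the 3 lines apart. The log2 ratio of FH to MDH2 was -1.0, -0.96 and -0.97 in HK2, -0.76, -0.67 and -0.67 in 786-O, against -1.27, -1.21 and -1.12 in 786-M1A. Relative to HK2 it was higher in 786-O by 0.275 and lower in 786-M1A by -0.223, and between the cancer lines it differed by -0.499, or 1.41-fold (exact permutation p = 0.1 for each, the smallest possible).

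**Figure D3:**
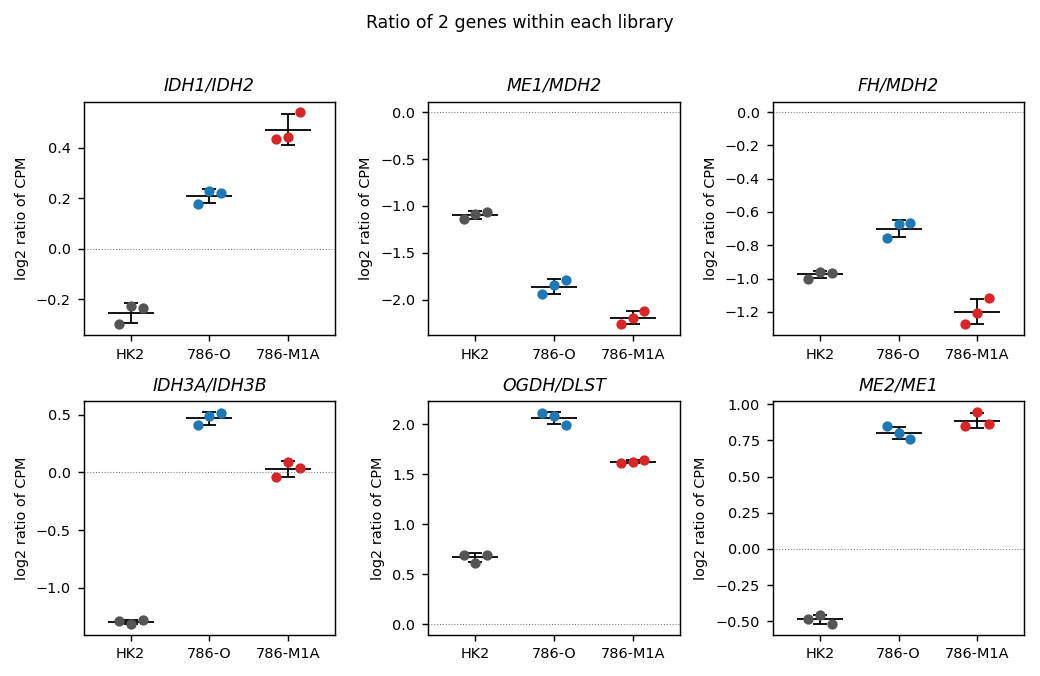
Log2 ratio of the levels of 2 genes within each library (vertical axis), by cell line; each point is 1 library, bars are the mean of 3 and whiskers ± 1 SD, and the dotted line marks a ratio of 1. IDH1/IDH2 goes from below -0.22 in HK2 to above 0.43 in 786-M1A, and FH/MDH2 is highest in 786-O and lowest in 786-M1A; IDH3A/IDH3B, OGDH/DLST and ME2/ME1 were chosen after their values were seen.

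ME1, the cytosolic malic enzyme, makes pyruvate and NADPH from malate and lies on the minus strand of chr6:83210402-83431051. Its level was 95.92, 104.4 and 102.0 CPM in HK2, 69.41, 70.28 and 73.43 CPM in 786-O, against 69.84, 68.82 and 71.19 CPM in 786-M1A. HK2 was above both cancer lines, which overlapped each other. ME1 fell by 0.51 in 786-O (SE 0.0418, edgeR adjusted p = 2.5e-10) and by 0.53 in 786-M1A (SE 0.0421, edgeR adjusted p = 1.19e-10). Between the cancer lines it differed by -0.02, with a 95% interval from -0.11 to 0.07 (edgeR adjusted p = 0.682). Relative to MDH2, which also uses malate, ME1 was lower in 786-O by -0.763 and in 786-M1A by -1.09 on the log2 scale (exact permutation p = 0.1, the smallest possible).

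The mitochondrial malic enzymes went separate ways. ME2, which uses NAD, had 68.54, 76.13 and 71.17 CPM in HK2, 124.8, 122.3 and 124.4 CPM in 786-O, against 126.0, 132.6 and 129.3 CPM in 786-M1A. It rose by 0.78 (SE 0.042, edgeR adjusted p = 1.26e-13) and by 0.84 (SE 0.0421, edgeR adjusted p = 2.94e-14), so that the ratio of ME2 to ME1 was 2.44-fold higher in 786-O and 2.59-fold higher in 786-M1A than in HK2. This pair was chosen after its values were seen. ME3, which uses NADP, was counted 457, 521 and 624 times in HK2, 8, 10 and 8 times in 786-O, against 34, 34 and 25 times in 786-M1A. ME3 thus fell in both lines, by 6.01 in 786-O (SE 0.151, edgeR adjusted p = 1.64e-19) and by 4.04 in 786-M1A (SE 0.119, edgeR adjusted p = 2.57e-18), and the few counts in the cancer lines limit the size of these values.

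**Figure D4:**
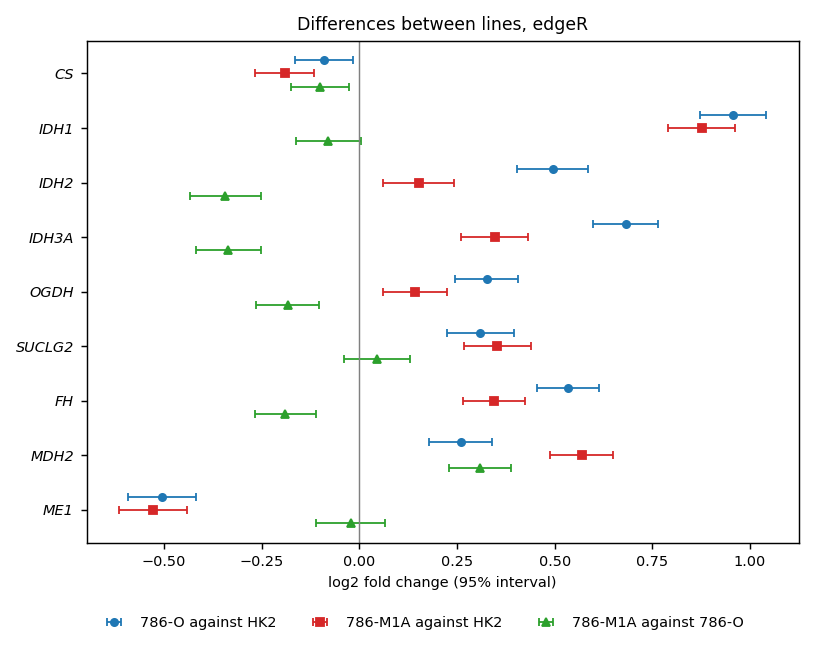
Log2 fold changes (horizontal axis) of the 9 enzymes with 95% intervals from edgeR for 786-O against HK2 (circles), 786-M1A against HK2 (squares) and 786-M1A against 786-O (triangles). Only CS and ME1 lie left of 0 in both comparisons with HK2, and MDH2 is the only member clearly right of 0 between the cancer lines, at 0.31.

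Levels were compared between members only per length, as RPKM over the union of annotated exons. MDH2 had the highest level in each line, 59.2 ± 1.5 RPKM in HK2, and then 70.9 ± 2.17 in 786-O and 87.9 ± 3.73 in 786-M1A (SD, n = 3). IDH3A had the lowest, 8.80 ± 0.0941, 14.1 ± 0.438 and 11.2 ± 0.293 RPKM. In HK2 the order after MDH2 was CS (41.6 RPKM), IDH2 (37.4), OGDH (31.0), ME1 (30.2), IDH1 (18.6), SUCLG2 (17.1), FH (11.7) and IDH3A, and OGDH and ME1 overlapped. In 786-O it was IDH2 (52.7 RPKM), CS (39.1), OGDH (38.8), IDH1 (36.1), ME1 (21.3), SUCLG2 (21.1), FH (17.0) and IDH3A, and CS overlapped OGDH as ME1 did SUCLG2. In 786-M1A it was IDH2 (41.6 RPKM), CS (36.5), OGDH and IDH1 (34.2 each, overlapping), SUCLG2 (21.8), ME1 (21.0), FH (14.9) and IDH3A. With the length of the longest transcript in place of the union, 2 of 9 members in 786-O and 3 of 9 in 786-M1A stayed at the same rank. MDH2 stayed at the top in each line, but in 786-O ME1 (21.3 RPKM) then stood below IDH3A (23.6 RPKM). CS, SUCLG2 and FH have annotated pseudogene copies, and none of these is among the counted genes.

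The genes whose pattern over the 9 libraries was nearest to those of the 3 members with the widest range were found by Euclidean distance of centred log2 CPM. For IDH1 they were LRRC37A3 (distance 0.107), GATD1 (0.121) and CD47 (0.126). For IDH3A they were BLOC1S6 (0.052), MLX (0.108) and EFR3A (0.118). For MDH2 they were TMEM250 (0.0672), CHMP1A (0.0855) and RFC2 (0.0933).

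The other genes of the pathway are given by list, to be read beside the shares of all genes tested. Against HK2, 41.6% of all genes were called higher in each cancer line, with 42.6% lower in 786-O and 43.3% in 786-M1A. Between the cancer lines the shares were 27.9% higher and 28.0% lower. The median log2 fold change of all genes was -0.0125 in 786-O and -0.0188 in 786-M1A against HK2, and 0 between the cancer lines. Of 14 other TCA cycle genes, 2 were higher, 11 lower and 1 not called in 786-O, with a median log2 fold change of -0.28. In 786-M1A 2 were higher, 9 lower and 3 not called, with a median of -0.30. ACO1, a cytosolic aconitase that also binds iron-responsive RNA elements, fell by 1.24 (SE 0.0381, edgeR adjusted p = 6.34e-18) and by 1.06 (SE 0.038, edgeR adjusted p = 8.08e-17), beside OGDHL, IDH3B and DLST described above. Between the cancer lines 6 were higher, 4 lower and 4 not called (median 0.01). IDH3G had the largest rise there, 0.65 (SE 0.0498, edgeR adjusted p = 3.68e-10), and DLST (0.25) and ACO1 (0.18) also rose.

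Pyruvate dehydrogenase makes the acetyl-CoA that CS uses, and kinases (PDK) switch it off while phosphatases (PDP) switch it on. Of its 10 genes, 2 were higher and 5 lower in 786-O, and 2 higher and 8 lower in 786-M1A (medians -0.30 and -0.38). PDP1 fell by 2.05 in 786-O (SE 0.0454, edgeR adjusted p = 1.8e-20) and by 1.36 in 786-M1A (SE 0.0438, edgeR adjusted p = 1.21e-17), from 146 CPM in HK2 to 35.3 and 57.0. The kinases PDK4 and, in 786-O, PDK1 fell as well, by 0.90 and 0.52, and PDK2 fell by 0.92 in 786-M1A, where PDP2 fell by 0.70. PDHX, which holds the complex together, rose in 786-O by 0.56. Between the cancer lines 2 were higher and 3 lower. PDP1 rose there by 0.69 and PDK1 by 0.34, and PDK2 fell by 0.84 and PDHX by 0.31.

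Of 13 genes for the entry and exit of cycle carbon 12 were tested; PCK1 was at 0 in both cancer lines and near 0 in HK2. In 786-O 5 were higher and 7 lower, in 786-M1A 6 and 6 (medians -0.14 and -0.05), and between the cancer lines 5 were higher and 4 lower. Beside ME2 and ME3, the dicarboxylate carrier SLC25A10 rose by 0.74 (SE 0.0608, edgeR adjusted p = 8.48e-10) and by 1.16 (SE 0.0603, edgeR adjusted p = 4.99e-13). SLC25A10 shares 1221 exonic bases on the same strand with an unnamed protein-coding gene that has no entry in the count table, so that its value is less certain. Pyruvate carboxylase (PC), which refills oxaloacetate, rose in 786-O by 0.67, and MPC1, a subunit of the mitochondrial pyruvate carrier, fell in 786-M1A by 0.72. Between the cancer lines the citrate carrier SLC25A1 rose by 0.48 and the mitochondrial PEP carboxykinase PCK2 by 0.46, while MPC1 fell by 0.50 and ME3 rose by 1.97.

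Among other genes of NADPH and 2-hydroxyglutarate metabolism, H6PD, the pentose phosphate enzyme of the endoplasmic reticulum, rose by 0.89 in 786-O and 0.52 in 786-M1A (SE 0.0506 and 0.0514, edgeR adjusted p = 3.48e-13 and 4.01e-09). NNT, the mitochondrial transhydrogenase that makes NADPH, rose by 0.87 and 0.49 (SE 0.0406 and 0.0409, edgeR adjusted p = 1.02e-14 and 2.55e-10). Both fell from 786-O to 786-M1A, H6PD by 0.37 and NNT by 0.38. D2HGDH, which removes D-2-hydroxyglutarate, fell in 786-M1A by 0.45 against either of the other lines.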

How the data were processed

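The authors made stranded mRNA libraries (TruSeq), sequenced them on a NextSeq and counted reads per NCBI gene with Rsubread (featureCounts) on hg38; they deposited raw counts, with no normalization and no filter. The annotation release and the strand setting are not given in the sources used here. The members and gene lists were chosen with earlier results of these data known. Symbols came from RefSeq GRCh38.p14 (27745 of 28395 identifiers), and positions, exon lengths and overlaps from GENCODE 44.

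The 12695 genes that averaged 50 or more counts per library were fitted in edgeR 4.0.16 (R 4.3.3) with TMM factors (0.9668 to 1.033) and the robust quasi-likelihood test, 1 coefficient per line, no covariate and the 3 pairwise contrasts. Benjamini-Hochberg adjustment covered all genes tested (threshold 0.05). Standard errors came from the log2 fold change and the F statistic. Log2 CPM used a prior count of 2. Ratios of 2 genes were compared with exact two-sided permutation tests. All 9 members were named with every library. From each other list up to 4 called genes with the largest difference per comparison were named. Other genes were chosen after their values were seen, as were the ratios of a member to a gene outside the 9. The alternatives were RLE and upper-quartile scaling, DESeq2 1.42.0, limma-voom (limma 3.58.1), no filter, at least 10 counts in every library, a fit of the 2 lines compared, the replicate block, and leaving out each library. The fit was tested on simulated data. No replicate pair was identical. Totals of 30212291 to 45362428 counts give a floor of 3 counts; floors cover counting error only. Promoter shares used RefSeq sequences of GRCh38.p14, which held 8 of the 9 members. Proteomics, metabolomics and methylation were not analysed here. A few genes of the lists have values that are not reported here.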

Additional observations from a re-analysis of the deposited data

Results flagged for a closer look

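The effect against HK2 differed between 786-O and 786-M1A, by the direct test of 786-M1A against 786-O (edgeR's quasi-likelihood test), for 6 of the 9 members. In that comparison 56.0% of all genes tested were called, so the count of members is near the share of all genes. The difference was -0.10 for CS (adjusted p = 0.0212 in edgeR), -0.34 for IDH2, -0.34 for IDH3A, -0.18 for OGDH, -0.19 for FH and 0.31 for MDH2 on the log2 scale. IDH2, IDH3A, OGDH and FH were nearer to HK2 in 786-M1A, and MDH2 and CS were farther from it.

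Among the other genes of the pathway, 4 were called with opposite signs against HK2 in the cancer lines. IDH3G differed by 0.65, PCK2 by 0.46 and SLC25A1 by 0.48, all lower than HK2 in 786-O and higher in 786-M1A, and ACLY, which splits exported citrate into acetyl-CoA and oxaloacetate, differed by -0.45 and was higher in 786-O and lower in 786-M1A. The call of SLC25A1 against HK2 in 786-O (-0.11) was lost under 6 of 17 alternatives, and that of PCK2 in 786-M1A (0.14) under 2 of 17.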

How the results depend on the processing

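The number of members called stayed at 9 for 786-O against HK2 and for 786-M1A against HK2 and at 6 between the cancer lines as reported and with the replicate block. It ranged from 8 to 9, at 9, and from 5 to 7 with 1 library left out, and was 8 for 786-O against HK2 without the filter. The changes of call concerned CS and IDH1. CS lost its call between 786-O and HK2 without the filter on low counts (-0.07, adjusted p = 0.124 in edgeR). Of the members' log2 fold changes under all alternatives, 449 kept their side of the threshold, 9 lost their call and 1 gained one; of the 449, the sign of ME1 between the cancer lines, which was not called, turned from -0.02 to 0.0023 under 1 alternative. Over all genes the calls ranged from 10402 to 10816, 10531 to 10782 and 6342 to 7242 with 1 library left out, and were 13550, 13738 and 8080 without the filter. The block called 10688, 10797 and 7157 genes, and 36, 38 and 29 genes of the pathway lists. Samples share only a number: their deviations correlated on average at -0.0456, -0.0685 and 0.133 in the 3 comparisons, and between the cancer lines every sample correlated best with its own number (0.215, 0.074 and 0.11), a hint from the data and not from the design. Upper-quartile scaling moved the median of all genes by -0.0415 and -0.0483 against HK2, and no called member changed sign. With the length of the longest transcript, 2 members in 786-O and 3 in 786-M1A stayed at their rank by level. The totals limit genes of few counts, such as OGDHL and ME3, more than the members.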
